A study of Mus musculus with 12 samples.

Results

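Ebf1, Foxp1, Foxp2, Isl1, Meis2, Zfp503, Drd1, Drd2, Penk and Tac1 were chosen by name as genes of striatal projection neurons, and they are 10 of the 23513 genes in the count tables of this series. Pregnant C57BL/6J mice received i.p. injections of saline or of EtOH at 2.5 g/kg (25% v/v in saline), 6 in all at 1 a day from embryonic day 8 to embryonic day 13, and the embryos' cortices were taken at embryonic day 14 for single nucleus RNA sequencing. Saline embryos numbered 5, of which S1-1 and S1-2 shared a dam, as did S2-1, S2-2 and S2-4. EtOH embryos numbered 6, E1-1 and E1-2 of one litter and E2-1, E2-2, E2-3 and E2-4 of another. The first litter of each treatment was in batch 1 and the second in batch 2, the saline embryo S2-3 was not analysed here, and sexes were not separated. The comparison between treatments asks whether repeated prenatal EtOH changed expression within a cell type.

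Striatal projection neurons are the GABAergic output neurons of the striatum, and they arise in the lateral ganglionic eminence. Those of the direct pathway carry the dopamine receptor gene Drd1 and the substance P precursor gene Tac1 and depend on the transcription factors Isl1 and Ebf1, whereas those of the indirect pathway carry the dopamine receptor gene Drd2 and the enkephalin precursor gene Penk. Foxp1 and Foxp2 encode forkhead repressors, Meis2 a homeodomain factor and Zfp503 a zinc finger protein, all of which act in striatal development and none of which is restricted to the striatum. The study dissected cortex, not striatum, and its authors named one of their 25 clusters, Cluster 11, Rarb+ striatal interneurons.

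The tables held 50550 nuclei and 440585690 unique molecular identifiers (UMIs, each standing for 1 captured RNA molecule). Saline embryos had 4437 to 7639 nuclei with a median of 6325 to 9051 UMIs per nucleus, and EtOH embryos had 2346 to 4928 nuclei with 4071.5 to 6911 UMIs. S2-4 was the shallowest saline embryo, with a median inside the range of the EtOH embryos. Levels below are in CPM, a gene's UMIs summed over an embryo's nuclei in a cluster and scaled to the same total in every embryo and cluster, given as the mean ± SD over the 11 embryos, and an embryo with fewer than 10 nuclei in a cluster was left out there, which was the case in 9 of 275 pairs of embryo and cluster. Of 50226 barcode sequences, 314 occurred in more than 1 embryo. Because these genes took part in the clustering, and several of them were among the authors' markers of Cluster 11, differences in level between clusters are a description and were not tested.

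Of the 10 genes, 6 were highest in Cluster 11 (Ebf1, Foxp1, Foxp2, Isl1, Zfp503 and Tac1), 3 in Cluster 13 (Meis2, Drd2 and Penk) and Drd1 in Cluster 4. Cluster 11 carried striatal genes outside the set as well. The retinoic acid receptor gene Rarb was at 1910 CPM there, Bcl11b, a transcription factor gene of striatal and subcerebral neurons, at 1907 CPM, Ikzf1 at 166 CPM and the mu opioid receptor gene Oprm1 at 338 CPM, each the highest of the 25 clusters. Of the 16 genes of the striatal maturation list from which these come, 8 were highest in Cluster 11, while Ikzf2 (36.6 CPM), Adcy5 (28.2 CPM), Tshz1 (47.9 CPM) and Pde1b (10.4 CPM) ranked 16 or lower there and Ppp1r1b was at 1.11 CPM. Gad2, which encodes a GABA-synthesising enzyme, stood at 1172 CPM, the cortical projection neuron gene Neurod2 at 22.1 CPM and the cholinergic gene Chat at 0.03 CPM. Interneuron genes of the medial eminence were low there, with Lhx6 at 10.9 CPM, Sst at 3.71 CPM and Npy at 0.889 CPM, while Adarb2, a gene of caudal eminence interneurons, was at 2225 CPM, the fourth highest level. The cluster is called by its number here. Cluster 13, named Int 2 by the authors, was highest for other indirect pathway genes, with Six3 at 110 CPM, Sp9 at 120 CPM, the adenosine receptor gene Adora2a at 32.4 CPM and Grik3 at 1072 CPM. It was also highest for Tshz1 (517 CPM), found in striatal and in olfactory bulb lineages, and had Adarb2 at 4555 CPM, Pax6 at 166 CPM and Sp8 at 23.3 CPM, with Rarb at 294 CPM and Ikzf1 at 1.16 CPM. It too is called by its number. Cluster 18, named Int 4, had Chat at 37.4 CPM and Lhx8, a factor of cholinergic and medial eminence neurons, at 130 CPM. Chat was highest there, whereas Lhx8 was highest in Cluster 15 (171 CPM). Cluster 18 also had Rarb at 519 CPM and Bcl11b at 1237 CPM, with Ikzf1 at 1.27 CPM.

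**Figure D1:**
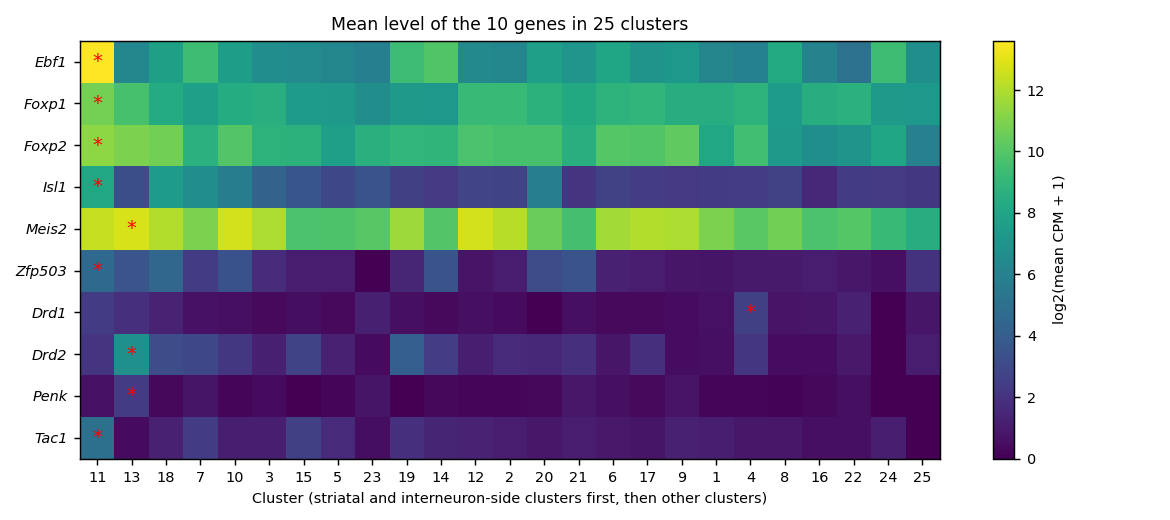
Mean level of the 10 genes (one per row) in the 25 clusters (columns, by cluster number), coloured by log2(mean CPM + 1), with a red star at the highest cluster of each gene. The stars fall in Cluster 11 for 6 genes, in Cluster 13 for 3 and in Cluster 4 for Drd1.

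Ebf1 encodes an early B-cell factor that acts in the differentiation and axon growth of direct pathway neurons. The gene lies at chr11:44617317-45008091 on the plus strand of GRCm38. Its level in Cluster 11 was 12463 ± 1265 CPM, 12.9 times that of the next cluster, the Cajal-Retzius Cluster 14 (969 ± 287 CPM). The saline embryos S1-1, S1-2, S2-1, S2-2 and S2-4 had 11463, 11485, 13214, 11923 and 12416 CPM, and the EtOH embryos ranged from 9874 to 14267 CPM with a median of 13074 CPM. Every embryo's Cluster 11 lay above every embryo's value in the 24 other clusters, and the treatments overlapped. Cluster 11 held 75.2% of the Ebf1 UMIs of the series, and all of its 2209 nuclei carried at least 1 of them. After each nucleus was thinned at random to 2000 UMIs, the share was still 99.95%. Interneuron Cluster 7 (677 ± 366 CPM), Cluster 24 (667 ± 549 CPM, n = 10) and Cluster 19 (645 ± 344 CPM) followed Cluster 14, with ranges that overlapped, and the lowest cluster was at 33.9 CPM. Ebf1 UMIs were found in 32.3% of the radial glial nuclei of Cluster 2, at a median depth of 7486.5 UMIs against 8528 in Cluster 11. RNA free in the suspension can give a nucleus UMIs of a gene it does not express, and whether this share reflects expression in progenitors was not tested.

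Foxp1 (GRCm38, chr6:98925338-99522721, minus strand) and Foxp2 (chr6:14901349-15441977, plus strand) were both highest in Cluster 11 but with smaller shares of their UMIs there. The saline embryos had 1898, 1586, 1363, 1410 and 1602 CPM of Foxp1 there, in the order used for Ebf1, and the EtOH embryos 1745 to 2079 CPM with a median of 1932 CPM. The mean was 1756 ± 240 CPM, and the lowest of the 11 embryos lay above the highest of any other cluster. Cluster 13 followed with 799 ± 197 CPM, and the radial glial Clusters 12 (578 ± 43.2 CPM) and 2 (575 ± 69.8 CPM) overlapped with it and with each other. Foxp1 UMIs were found in 91.5% of the Cluster 11 nuclei (80.9% after thinning), and 20.7% of all Foxp1 UMIs were in that cluster. Foxp2 stood at 2502 ± 398 CPM in Cluster 11, followed by Cluster 13 with 1921 ± 397 CPM and Cluster 18 with 1699 ± 377 CPM. The Foxp2 ranges of these clusters overlapped, as did those of all neighbours in its order. Early projection neurons of Cluster 9 were next with 1246 ± 194 CPM. In Cluster 11, 91.9% of nuclei had a Foxp2 UMI (82.5% after thinning), and the cluster held 17.5% of the Foxp2 UMIs.

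Isl1 encodes the LIM homeodomain factor that specifies direct pathway neurons and also acts in striatal cholinergic neurons (chr13:116298281-116309689, minus strand). Cluster 11 had 245, 268, 352, 317 and 237 CPM in the saline embryos and 177 to 335 CPM in the EtOH embryos, with a median of 278 CPM. The mean of 277 ± 49.5 CPM was 1.60 times that of Cluster 18 (174 ± 32.1 CPM), the cluster with Chat, and the ranges of these clusters overlapped. Cluster 7 followed with 99.3 ± 44.1 CPM, while Cluster 13, which had Drd2, was at 8.56 ± 5.69 CPM. Isl1 was detected in 78.9% of Cluster 11 nuclei, 49.1% of Cluster 18 nuclei and 2.86% of the callosal projection neurons of Cluster 1, which were at a median depth of 6607.5 UMIs. After thinning these shares were 40.6%, 22.3% and 0.805%. In Cluster 13 an Isl1 UMI was found in 4.14% of nuclei (1.23% after thinning), close to the share in Cluster 1.

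Zfp503 (also called Nolz1, chr14:21983959-21989601, minus strand), whose product acts in striatal progenitors and in the fate of direct pathway neurons, had 24 ± 8.27 CPM in Cluster 11, the nearest being Cluster 18 with 21.1 ± 11.3 CPM, and these did not differ beyond their spread. The saline embryos had 26.4, 26, 31.8, 33.5 and 21.1 CPM in Cluster 11, and the EtOH embryos 7.99 to 36.5 CPM with a median of 20.4 CPM, so that the EtOH range enclosed the saline range. Cluster 13 was at 11 ± 5.47 CPM. A Zfp503 UMI was present in 19.1% of Cluster 11 nuclei (5.42% after thinning) against 1.10% in Cluster 2. Cluster 23 had 0 Zfp503 UMIs, which allows up to 1.06 CPM (3 UMIs of its total, counting error only).

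Meis2 (chr2:115863064-116065839, minus strand), a homeodomain gene of the lateral ganglionic eminence, was highest outside Cluster 11 and high in progenitors. Its highest mean was in Cluster 13 (7081 ± 737 CPM), closely followed by the non-mitotic radial glia of Cluster 12 (6646 ± 702 CPM), the late interneuron precursors of Cluster 10 (6621 ± 777 CPM) and Cluster 11 (5528 ± 492 CPM), and the ranges of these neighbours overlapped. Cluster 11 held 9.84% and Cluster 13 held 5.90% of the Meis2 UMIs. Even in Cluster 1 the level was 1960 ± 196 CPM, and 98.0% of nuclei had a UMI. Neither in Cluster 11 nor in Cluster 13 did the Meis2 range clear that of the progenitors of Cluster 12.

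**Figure D2:**
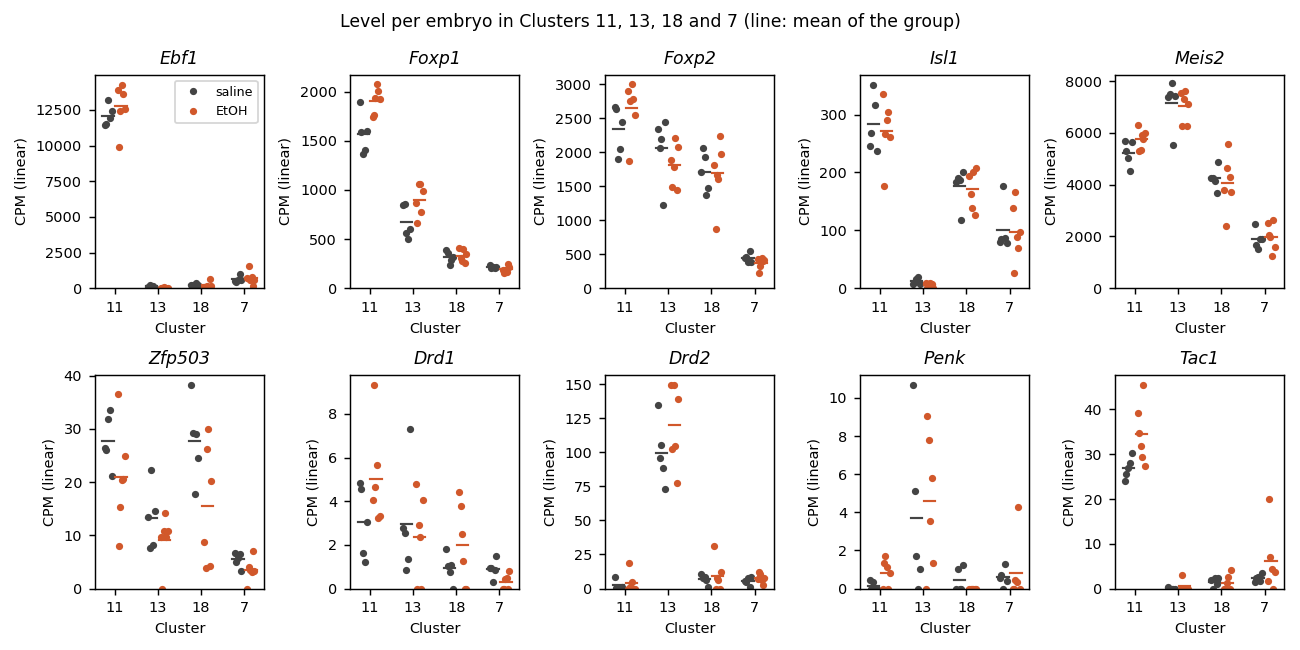
Level of each gene per embryo (points, CPM on a linear axis from 0) in Clusters 11, 13, 18 and 7, with saline embryos in grey, EtOH embryos in orange and a line at each group's mean. Ebf1 and Tac1 stand high in Cluster 11 alone among these clusters and Drd2 in Cluster 13, while Isl1 also appears in Clusters 18 and 7.

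The genes that distinguish the pathways in the adult, which encode peptides and dopamine receptors, were low at embryonic day 14. Tac1 (chr6:7554879-7565834, plus strand), with 1220 UMIs in all, had 53.4% of them in Cluster 11. The saline embryos had 23.9, 25.7, 26.9, 28.0 and 30.3 CPM, and the EtOH embryos 39.2, 34.6, 31.9, 29.3, 45.5 and 27.3 CPM from E1-1 to E2-4. The EtOH embryos reached higher, but E2-2 and E2-4 lay within the saline range. The mean of 31.1 ± 6.41 CPM was 6.40 times that of the next cluster, Cluster 15 (4.87 ± 3.02 CPM), and did not overlap with it, and Cluster 7 followed with 4.40 ± 5.50 CPM. Only 13.7% of Cluster 11 nuclei had a Tac1 UMI (4.19% after thinning), against 0.805% of the radial glia of Cluster 2.

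Drd1 (chr13:54051183-54055705, minus strand) had 495 UMIs in the whole series. The rostral subcortical projection neurons of Cluster 4 had the highest mean, 4.99 ± 1.44 CPM, and Cluster 11 the next, 4.14 ± 2.18 CPM, with overlapping ranges, ahead of Cluster 13 with 2.63 ± 2.17 CPM. Cluster 11 embryos ranged from 1.22 CPM in S2-2 to 9.33 CPM in E1-2. A Drd1 UMI was found in 4.79% of Cluster 4 nuclei, 3.62% of Cluster 11 nuclei and 0.253% of Cluster 2 nuclei. When nuclei were thinned, Cluster 11 became the highest (0.911% against 0.801% of nuclei), so the order of these clusters is not settled at this depth.

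Drd2 (chr9:49340627-49408177, plus strand) stood out in Cluster 13. In Cluster 13 the saline embryos had 134, 95.8, 105, 88.5 and 73.0 CPM, and the EtOH embryos 149, 102, 149, 105, 77.1 and 139 CPM. The mean of 111 ± 27.8 CPM was 7.13 times that of the next cluster, the unnamed neurons of Cluster 19 (15.5 ± 14.2 CPM), and every embryo of Cluster 13 lay above every value elsewhere. Cluster 18 (8.29 ± 8.51 CPM), Cluster 7 (6.79 ± 3.24 CPM) and Cluster 11 (3.28 ± 5.76 CPM) overlapped with one another. Drd2 UMIs were in 29.0% of Cluster 13 nuclei (15.4% after thinning), 1.04% of Cluster 11 nuclei and 0.736% of Cluster 2 nuclei, and Cluster 13, with a median depth of 6789.5 UMIs, held 50.9% of them. Tac1 was the reverse, with 2 UMIs among the 1304 nuclei of Cluster 13.

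Penk (chr4:4133531-4138819, minus strand) was the rarest member, with 175 UMIs, of which 54 were in Cluster 13. Its level there was 4.19 ± 3.76 CPM and rested on 36 nuclei, and S2-2 and E1-1 had 0 UMIs. Cluster 21 was next with 0.812 ± 1.07 CPM (n = 10), then Cluster 7 with 0.728 CPM (0 to 4.29 CPM over the embryos), and the ranges of Clusters 13 and 21 overlapped. Clusters 15, 19, 24 and 25 had 0 Penk UMIs, which allows up to 0.22 CPM in the most deeply counted and up to 1.18 CPM in the least.

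**Figure D3:**
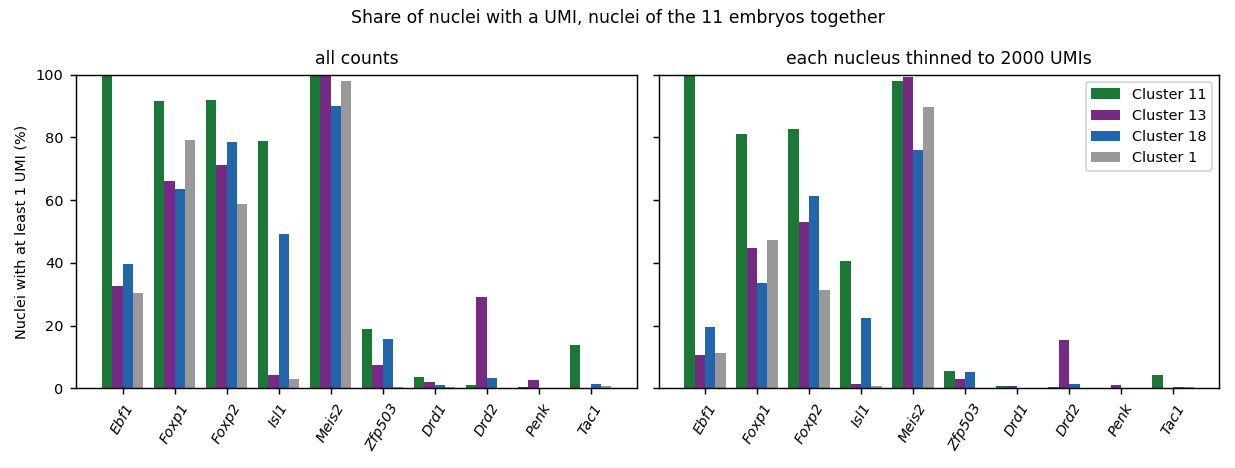
Percent of nuclei with at least 1 UMI of each gene in Clusters 11, 13, 18 and 1, over the nuclei of the 11 embryos together, on all counts (left) and with each nucleus thinned to 2000 UMIs (right). Ebf1 is near 100% in Cluster 11 on both sides, whereas Tac1 falls from 13.7% to 4.19% there and Drd2 from 29.0% to 15.4% in Cluster 13.

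The sequence before the start of Tac1, Drd2 and Isl1 is shown from RefSeq on GRCm38.p6, as examples of a direct pathway peptide gene, an indirect pathway receptor gene and a direct pathway factor gene, chosen after their levels were seen. Of the 10 genes, 8 matched an entry (Penk and Foxp2 did not), with 12 promoters between them. Each line gives the 250 bases before the RefSeq start used in that table, 5′ to 3′ on the gene's strand, and capitals mark a TAATTA homeodomain motif. The Tac1 stretch is chr6:7554811-7555060 on the plus strand, the Drd2 stretch chr9:49340153-49340402 on the plus strand, and the Isl1 stretch chr13:116309689-116309938 on the minus strand. The gene positions given above are from GENCODE, whose starts differ from these, and by that annotation most of the Tac1 stretch, its TAATTA included, lies within the gene.
Tac1: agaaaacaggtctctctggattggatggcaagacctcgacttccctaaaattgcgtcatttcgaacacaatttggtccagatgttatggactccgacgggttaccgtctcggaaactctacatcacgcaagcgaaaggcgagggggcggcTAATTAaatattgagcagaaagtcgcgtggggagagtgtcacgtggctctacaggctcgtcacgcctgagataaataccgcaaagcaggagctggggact
Drd2: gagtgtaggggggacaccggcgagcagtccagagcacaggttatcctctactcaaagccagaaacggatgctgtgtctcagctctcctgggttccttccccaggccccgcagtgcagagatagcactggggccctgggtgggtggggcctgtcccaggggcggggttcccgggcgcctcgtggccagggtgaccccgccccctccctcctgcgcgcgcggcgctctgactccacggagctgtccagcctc
Isl1: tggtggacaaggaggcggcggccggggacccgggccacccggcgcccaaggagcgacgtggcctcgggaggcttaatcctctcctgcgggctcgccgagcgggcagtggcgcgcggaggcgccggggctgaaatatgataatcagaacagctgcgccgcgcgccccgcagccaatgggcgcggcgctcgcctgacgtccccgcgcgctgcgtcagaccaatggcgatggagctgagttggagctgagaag
Motifs were searched on both strands from 250 bases before to 50 bases after the start. TAATTA was found in 2 of the 12 promoters, those of Tac1 and of 1 of the 3 Foxp1 entries, against 5.29% of all 32851 promoters of that length. The MEIS motif TGACAG was in 1, the same Foxp1 promoter, against 19.2% of all. The forkhead motif TGTTTAC was in 0 of the 12, against 3.65% of all promoters, which says only that these letters are not in these windows. The GC content of the Drd2 window was 70.3% and that of Isl1 69.0%, with Tac1 at 54.0% and the median promoter at 52.7%.

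The pairs of genes seen in the same nucleus were counted against the number expected if their shares within each embryo were independent, with nuclei thinned to 2000 UMIs. In the 2195 nuclei of Cluster 11 that were deep enough, 29 pairs of members had an expected number of at least 5, and the ratio of observed to expected lay between 0.68 and 1.21. The range depended on depth, reaching down to 0.54 at 4000 UMIs (Zfp503 with Tac1, 8 nuclei, 14.9 expected) and up to 2.23 with all counts (Drd1 with Tac1, 25 nuclei, 11.2 expected, above in 9 of 11 embryos). Pairs with Ebf1, found in 2194 of these nuclei, or with Meis2, found in 2150, could hardly depart from 1. Foxp1 and Foxp2 were seen together in 1545 nuclei (1469 expected), above expectation in 11 of 11 embryos. Tac1 was seen with Foxp1 in 86 nuclei (75.9 expected, above in 9 of 11 embryos) and with Foxp2 in 66 (76.5 expected, below in 9). With all counts the ratio of Tac1 with Foxp1 was 1.07, above 1 in 11 of 11 embryos, whereas that with Foxp2 went from 0.86 to 0.95 at 4000 UMIs and 0.99 with all counts, below 1 in 6. Foxp1 and Drd1 shared 20 nuclei (16.6 expected), that is, all nuclei with a Drd1 UMI had one of Foxp1. Nuclei with Isl1 were seen with Foxp1 in 726 cases (717 expected).

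Within Cluster 13 the forkhead genes differed in how often they were seen with Drd2. This cluster and Clusters 18 and 7 were examined after the levels had been seen. Foxp1 and Drd2 shared 160 nuclei of 1298 against 90.9 expected, a ratio of 1.76 that was above 1 in 11 of 11 embryos, while Foxp2 and Drd2 shared 61 against 106 expected, a ratio of 0.58 that was below 1 in all 11. Foxp1 and Foxp2 themselves were together in 243 nuclei (307 expected), a ratio of 0.79 that was below 1 in 9 embryos. The ratio was 0.95 at 4000 UMIs per nucleus and 0.96 with all counts, below 1 in 10 embryos each time. A ratio has less room to depart from 1 where more nuclei carry the genes, as at greater depth. Its size therefore cannot be compared between depths. Zfp503 shared 15 nuclei with Drd2 (5.69 expected) and 12 with Foxp2 (20.7 expected). Foxp1 was present in 14 of the 15 nuclei with a Penk UMI (6.73 expected). With all counts in place of thinned ones, the ratio was 1.32 for Foxp1 with Drd2 and 0.83 for Foxp2 with Drd2. In Cluster 7, Isl1 was seen with Meis2 in 450 nuclei (348 expected, above in 11 of 11 embryos), and the ratio of 1.29 was 1.14 at 4000 UMIs and 1.07 with all counts. Isl1 with Foxp2 had a ratio of 0.78, below 1 in 10 embryos, but of 0.91 at 4000 UMIs, below 1 in 5, and of 0.97 with all counts. In Cluster 18, Foxp1 and Foxp2 were together in 230 of 965 nuclei (199 expected). This ratio of 1.15 was above 1 in 11 of 11 embryos, and it was 1.06 with all counts. Foxp2 and Drd2 shared 2 nuclei there (8.19 expected), a ratio of 0.24 that was 0.58 at 4000 UMIs and 0.85 with all counts.

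The genes whose mean levels followed each member most closely over the 25 clusters were found by Pearson's r of log2(mean CPM + 1) among 16546 genes. The 25 points share embryos, depth and batch, and r is a description. Ebf1 was followed by Gm12158 (r = 0.98), Scn10a (0.79) and Kcnh1 (0.77). Gm12158 is an antisense gene inside Ebf1 (chr11:44659522-44662676, minus strand), and how far reads of one were counted for the other was not tested. The methods name a 3′ kit and Cell Ranger at its default settings but no strand. Tac1 was followed by Scn10a (0.88), a sodium channel gene, Tnfsf8 (0.84) and Galr1 (0.79). Among the members, Ebf1 and Tac1 were at 0.76 and Foxp2 and Meis2 at 0.79.

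Neighbouring genes also led the lists of Meis2 and Zfp503. Meis2 was followed by the long non-coding genes G630016G05Rik (0.98, 1385 bases away) and 2700033N17Rik (0.97, 378 bases away), then by Gm38804 (0.81), and Foxp2 by G630016G05Rik (0.80), Meis2 and 2700033N17Rik (0.78). Zfp503 was followed by Lrmda (0.87), which starts 30110 bases away, Gm39244 (0.80) and Gm20557 (0.79). For Foxp1 the nearest were Nfs1 (0.79), Gm32592 (0.79) and Frmd6 (0.78), and for Isl1 Gm47914 (0.87), Gm20686 (0.81) and Peg10 (0.81). Drd2 was nearest to Myh7 (0.80), the kappa opioid receptor gene Oprk1 (0.80) and Mylip (0.79), and Drd1 to Acmsd (0.79), Kirrel3os (0.75) and 2900009J06Rik (0.71). Penk, with fewer than 200 UMIs, was not ranked.

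EtOH and saline embryos were then compared within each cluster by edgeR's quasi-likelihood test on the summed counts. A gene was called at an adjusted p under 0.05 (Benjamini-Hochberg over all genes tested in that cluster) with a fold change below 0.8 or above the inverse of 0.8. Of 120 pairs of member and cluster that passed the filter on low counts, 5 were called lower in EtOH, which is 4.17% against a background of 0.35% over all genes and clusters, and 0 were called higher, against 0.442%. The called pairs were Ebf1 in Clusters 1, 5 and 9, Foxp1 in Cluster 5 and Foxp2 in Cluster 16, all outside Cluster 11. With batch as a replicate block 3 were called, and those lost were Ebf1 in Cluster 1 (-1.39, adjusted p = 0.0677) and Foxp1 in Cluster 5 (-0.31, adjusted p = 0.0391, short of the fold). At an unadjusted p under 0.05, 26 pairs were lower and 2 higher, together 23.3% against 17.4% of all genes. The log2 fold change was below 0 in 71.7% of the pairs, with a median of -0.17, against 49.0% and 0.01 over all genes. Ebf1 was tested in 24 clusters, Foxp1, Foxp2 and Meis2 in 25 each, Isl1 in 11, Zfp503 in 5, Drd2 in 3 and Drd1 and Tac1 in 1 each, and Penk in none. These tests treat littermates as independent, with 2 dams per treatment.

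**Figure D4:**
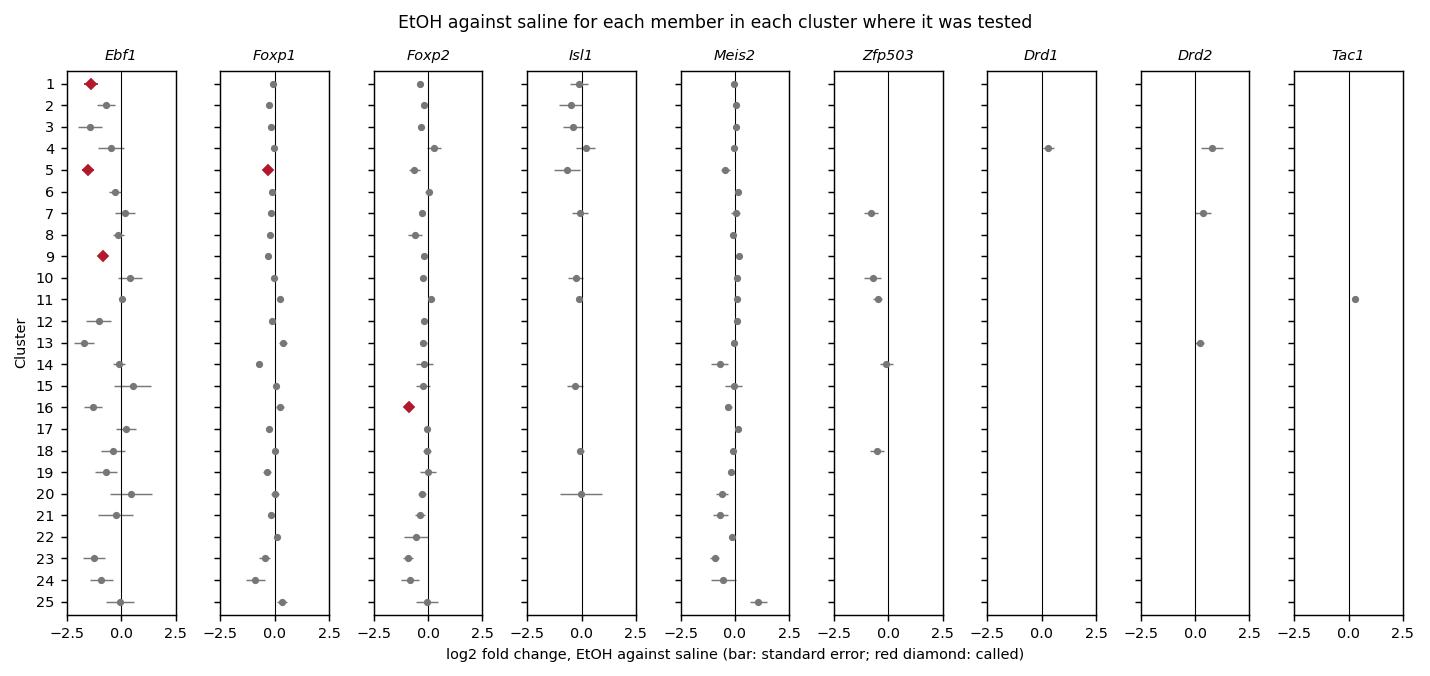
Log2 fold change of EtOH against saline (x axis, bars give the standard error) for each gene in each cluster where it was tested (y axis, cluster number), with red diamonds for the 5 called pairs. All 5 diamonds lie left of 0, and Ebf1 in Cluster 11 lies at 0.03.

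Within Cluster 11 itself, 0 of the 7 members tested were called, by edgeR and also by DESeq2 and limma-voom, against 0.835% of the 10185 genes tested there by edgeR. At an unadjusted p under 0.05 there were 2, Foxp1 higher and Zfp503 lower, which is 28.6% against 18.9% of all genes there. Ebf1 differed by 0.03 on the log2 scale (SE 0.09), Foxp2 by 0.12 (SE 0.13), Meis2 by 0.08 (SE 0.08) and Isl1 by -0.11 (SE 0.15). Foxp1 was at 0.22 (SE 0.09, edgeR adjusted p = 0.191), with every EtOH embryo above 4 of the 5 saline embryos and S1-1 above E1-1 and E1-2. Tac1 was at 0.28 (SE 0.14, adjusted p = 0.272) and Zfp503 at -0.49 (SE 0.22, adjusted p = 0.239). The Foxp1 difference was -0.10 in batch 1 and 0.44 (edgeR adjusted p = 0.0497, a call) in batch 2. In Cluster 13 Foxp1 was at 0.38 over all embryos (adjusted p = 0.349), at -0.26 in batch 1 and at 0.80 (adjusted p = 0.0116) in batch 2. Whether the batches differed was not tested, and batch cannot be told apart from litter, since each batch held a single litter per treatment. Drd2 in Cluster 13 was at 0.20 (SE 0.19, adjusted p = 0.679), and Drd1 in Cluster 4 at 0.31 (SE 0.23, adjusted p = 0.467).

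The share of nuclei in Cluster 11, a measure of how many such cells each cortex sample held, was 4.26 ± 0.447% over the 5 saline embryos and 4.42 ± 1.01% over the 6 EtOH embryos (SD). The difference of 0.156 percentage points gave p = 0.758 in a two-sided exact permutation test over all 462 splits of the embryos, and p = 0.743 over those that kept the batches. It turned to -0.0412 without S2-2 and to -0.186 without E2-1.

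Ebf1 UMIs were called lower in EtOH in Clusters 1, 5 and 9. Averaged over both treatments, the level in the first 2 of them was near that counted in the radial glia of Cluster 2. Means over the 11 embryos were 73.3 CPM (Cluster 1), 73.7 CPM (Cluster 5), 151 CPM (Cluster 9) and 75.1 CPM (Cluster 2). By treatment the order differed. All saline embryos but S2-4 in Cluster 1 and S1-2 in Cluster 5 lay above the saline mean of Cluster 2 (94.6 CPM). In both clusters all EtOH embryos but E2-2 lay below the EtOH mean of Cluster 2 (58.8 CPM). Some other progenitors were higher, with 251 ± 89.3 CPM in the intermediate progenitors of Cluster 6 and 202 ± 194 CPM (n = 9) in the radial glia of Cluster 20. The log2 fold change was -0.28 in Cluster 6, 0.45 in Cluster 20 and -1.43 in the interneuron precursors of Cluster 3, none of them called. The share of nuclei with an Ebf1 UMI was 43.8% of 2761 saline and 12.3% of 1585 EtOH nuclei in Cluster 2, 44.2% and 12.7% in Cluster 1, 47.3% and 13.2% in Cluster 5, and 49.4% and 20.3% in Cluster 9. The differences in Clusters 1, 5 and 9 are given as counts of UMIs, and whether expression changed in those neurons was not tested. Cluster 9 stood above Cluster 2 in both treatments, but its share of nuclei with a UMI was also lower in EtOH. In Cluster 2 itself the level was 94.6 ± 36.3 CPM in saline and 58.8 ± 33.1 CPM in EtOH, a log2 fold change of -0.71 (SE 0.43) that did not pass (adjusted p = 0.350). That level rested on few nuclei, since the 16 EtOH nuclei with the most Ebf1 UMIs held 69.6% of those in Cluster 2, against 31.2% in the 28 such saline nuclei. The remaining interneuron clusters differed in sign, with 0.19 in Cluster 7, 0.41 in Cluster 10 and 0.51 in Cluster 15 but -0.38 in Cluster 18 and -1.25 in Cluster 23, none of them called. In the callosal projection neurons of Cluster 1 the saline embryos had 126, 104, 162, 109 and 53.7 CPM, and the EtOH embryos 17.4 to 62.0 CPM with a median of 41.3 CPM. S2-4 lay within the EtOH range and the other saline embryos above it. The log2 fold change was -1.41 (SE 0.33, edgeR adjusted p = 0.0493), with 1.69% of genes called lower in Cluster 1. The migrating interneurons of Cluster 5 had 103, 86.3, 153, 106 and 126 CPM in saline against 11 to 59.97 CPM in EtOH (median 41.0 CPM), with no overlap. There the log2 fold change was -1.53 (SE 0.28, edgeR adjusted p = 0.0358), with 0.813% of genes called lower in that cluster. In the early projection neurons of Cluster 9 the saline embryos had 208, 161, 244, 227 and 148 CPM and the EtOH embryos 93.6 to 135 CPM with a median of 109 CPM, again without overlap. This gave a log2 fold change of -0.85 (SE 0.14, edgeR adjusted p = 0.0116), with 0.799% called lower. In Cluster 13 the values of 92.5, 239, 140, 123 and 50.03 CPM in saline and 14.4 to 53.7 CPM in EtOH (median 38.4 CPM) gave -1.71 (SE 0.44), which did not pass (adjusted p = 0.103).

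**Figure D5:**
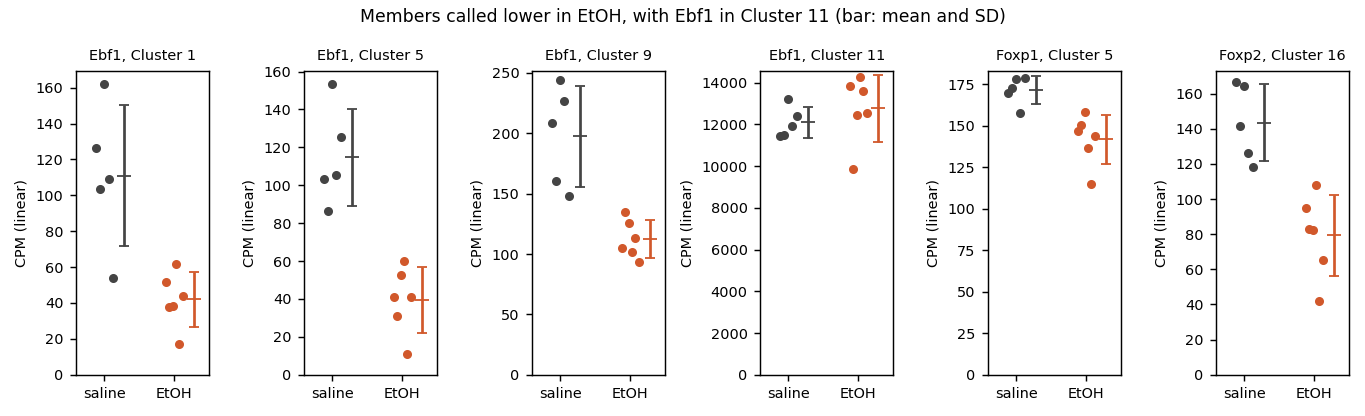
Level per embryo (points, CPM on linear axes from 0) of the 5 called pairs of gene and cluster and of Ebf1 in Cluster 11, in saline (grey) and EtOH (orange), with the mean and SD beside the points. The EtOH embryos lie lower in the 5 called pairs, with S2-4 near them for Ebf1 in Cluster 1, and the treatments overlap for Ebf1 in Cluster 11.

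In Clusters 1, 5 and 9 most nuclei with an Ebf1 UMI had exactly 1, but a few nuclei held many of the UMIs. The 20 EtOH nuclei with the most held 40.9% of those in Cluster 1, against 22.1% in the 25 such saline nuclei. In Cluster 5 the values were 45.96% in 16 EtOH nuclei and 29.9% in 23 saline nuclei. In Cluster 9 they were 27.7% in 11 EtOH nuclei and 15.99% in 15 saline nuclei. In Cluster 1, 61.2% of the positive saline nuclei had exactly 1 UMI, beside 63.2% in Cluster 2. Nuclei with 10 or more Ebf1 UMIs numbered 26 in saline and 8 in EtOH, whereas in Cluster 11 all but 4 of the 2209 nuclei had that many. The Ebf1 level of the whole embryo was 710 to 999 CPM in saline and 648 to 1128 CPM in EtOH. Relative to that, Cluster 1 stood at 6.57% to 16.3% in saline and 2.06% to 6.90% in EtOH. Other measures moved alongside. The median depth of Cluster 1 nuclei was 6137 to 8665 UMIs in saline embryos and 3987.5 to 6463 in EtOH embryos, and at 2000 UMIs per nucleus the log2 fold change of Ebf1 was -1.41 there (adjusted p = 0.0719) and -0.91 in Cluster 9 (adjusted p = 0.00804).

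Markers of other cell types were read in the same clusters. Some genes are in more than 1 list, such as Slc17a6 (thalamic and cortical projection neuron lists) and Prox1 (thalamic and caudal eminence lists). Of the thalamic list, Slc17a6 was highest in Cluster 9 and Lhx2 in Cluster 6. Of caudal eminence and olfactory bulb markers, 4 of 4 tested were below 0 in Cluster 1 (median log2 fold change -0.71), 4 of 5 in Cluster 5 (-0.47), 2 of 3 in Cluster 9 (-0.45) and 3 of 3 in Cluster 16 (-0.48), with 0 called. Thalamic markers were below 0 for 6 of 6 (-0.28), 5 of 6 (-0.48, 1 called lower), 4 of 5 (-0.59) and 5 of 5 (-0.44) in the same order, and Cajal-Retzius markers for 1 of 1 (-0.78), 0 of 2 (0.21), 2 of 2 (-0.62, 1 called lower) and 1 of 1 (-0.91). Markers of cortical projection neurons, the cells of Clusters 1, 9 and 16, were below 0 for 4 of 7 (-0.18, 1 called lower), 5 of 5 (-0.21, 1 called lower), 4 of 7 (-0.15, 1 called lower) and 3 of 7 (0.01). Radial glial markers were below 0 for 5 of 5 (-0.20), 5 of 8 (-0.09, 1 called lower), 2 of 4 (-0.23, 1 called lower) and 3 of 3 (-0.11), and those of amygdala and septum for 3 of 4 (-0.24), 3 of 4 (-0.14), 3 of 4 (-0.14) and 2 of 2 (-0.15). Cholinergic markers were tested in Cluster 1 (1 of 1 below 0) and Cluster 5 (2 of 2), and 1 vascular marker, above 0, in each of Clusters 1 and 9. Red blood cell markers were below 0 for 3 of 6 (-0.04), 1 of 6 (0.19), 0 of 4 (0.66) and 1 of 3 (0.08). The 1 or 2 microglial markers tested in each of these clusters were above 0, with medians of 0.56, 0.69, 0.74 and 0.74. Of that list, P2ry12 and Cx3cr1 had 5220 and 5052 UMIs in the series and the others 319 or fewer. P2ry12 was highest in Cluster 11 (76.3 CPM), where Csf1r was at 0.585 CPM. Gad2 was at 46.9 ± 21.7 CPM in saline and 23.8 ± 9.11 CPM in EtOH in Cluster 1 and at 53.2 ± 26.2 and 19.5 ± 11.2 CPM in Cluster 9, and at 55.1 ± 29.5 and 15.1 ± 9.94 CPM in Cluster 16, where Foxp2 was called, in each case without a call. It was at 1097 ± 84.2 and 1107 ± 73.3 CPM in the interneurons of Cluster 5, which express it. Erbb4, which the authors used as a marker of migrating interneurons, was called lower in Cluster 1 (log2 fold change -1.82, edgeR adjusted p = 0.0397). It was also called lower in Cluster 9 (-2.04, adjusted p = 0.0376), but not in Cluster 16 (-1.28, adjusted p = 0.428) or Cluster 5 (-0.16, adjusted p = 0.344). Dlx6os1 was at -0.86, -1.69, -2.47 and -0.32 in Clusters 1, 9, 16 and 5, without a call. Of 8 medial eminence interneuron markers, 4 were tested in Cluster 1 (3 below 0, 1 called lower, median log2 fold change -0.76), 8 in Cluster 5 (3 below 0, 0 called, median 0.09), 4 in Cluster 9 (2 below 0, 1 called lower, median -0.02) and 2 in Cluster 16 (2 below 0, 1 called lower, median -1.46). Their summed level was 207 to 385 CPM in saline and 118 to 199 CPM in EtOH in Cluster 1, 4469 to 5230 and 4190 to 4973 CPM in Cluster 5, 565 to 737 and 450 to 580 CPM in Cluster 9, and 220 to 387 and 42.2 to 156 CPM in Cluster 16, with none of the 8 at 0 over a group. Cluster 1 also had calls in both directions among the wider lists of striatal genes and of relatives of the members. Rarb (log2 fold change -1.20, adjusted p = 0.0256), Pbx3 (-1.36, adjusted p = 0.0481) and Meis1 (-0.77, adjusted p = 0.0387) were called lower there, of which Pbx3 and Meis1 were highest in Cluster 19, and Oprm1 was called higher (0.81, adjusted p = 0.0396). In Cluster 16 Pbx3 and Meis1 did not pass, with Pbx3 at 124 ± 51.3 and 55.2 ± 28.8 CPM and Meis1 at 47.5 ± 28.0 and 21.7 ± 6.13 CPM. On the log2 scale Rarb was at -0.03, -0.18 and 0.14 in Clusters 5, 9 and 16, without a call. In the same order Bcl11b was at -0.14, -0.22 and 0.14 and Zfp521 at -0.39, -0.34 and 0.20, also uncalled. Pbx3 was at -0.57 and -0.48 and Meis1 at -0.78 and -0.60 in Clusters 5 and 9, again uncalled. The part of depth, of RNA from other cells and of nuclei captured together in the Ebf1, Foxp1 and Foxp2 results was not tested.

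Foxp1 was called in Cluster 5 by a small margin. The saline embryos had 170, 173, 178, 158 and 179 CPM and the EtOH embryos 115 to 158 CPM with a median of 145 CPM, so that the groups met at S2-2 and E2-1. The log2 fold change of -0.33 (SE 0.07, edgeR adjusted p = 0.0374) lay just past the fold of 0.8. All of these levels were below 359 CPM, the median of the cluster means of Foxp1, whose lowest was 105 CPM. A larger difference in the Cajal-Retzius Cluster 14, where saline had 155, 246, 194, 208 and 154 CPM and EtOH 94.8 to 150 CPM, gave -0.72 (SE 0.14) and narrowly missed (adjusted p = 0.0516). Foxp2 was called in the caudal subcortical projection neurons of Cluster 16, with 167, 142, 164, 126 and 118 CPM in saline and 42.2 to 108 CPM in EtOH (median 82.9 CPM), without overlap. The log2 fold change was -0.86 (SE 0.18, edgeR adjusted p = 0.0448), with 0.247% of genes called lower there. Every embryo of Cluster 16 was below 471 CPM, the median of the cluster means of Foxp2, whose lowest was 59.0 CPM. In Cluster 23, one of the clusters of migrating interneurons, Foxp2 (-0.93, adjusted p = 0.136) and Meis2 (-0.93, adjusted p = 0.0943) did not pass.

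The call of Ebf1 in Cluster 9 was kept in 11 of the 11 fits that left out 1 embryo, with adjusted p of 0.0489 or less. The other 4 calls were lost in most of them, Ebf1 in Cluster 1 in all but the one without S2-4 (adjusted p = 0.00254), with a highest adjusted p of 0.127 without S1-1. Of these, Ebf1 in Cluster 5 was kept without S2-4 (0.0102) or E2-3 (0.0205), Foxp1 in Cluster 5 without S2-4 (0.00509) or S2-2 (0.0497), and Foxp2 in Cluster 16 without S2-4 (0.00411) or E2-2 (0.0297). Directions were the same in both batches for all 5. For Ebf1, batch 1 gave -1.44, -1.54 and -0.70 in Clusters 1, 5 and 9, and batch 2 gave -1.36, -1.60 and -0.92. In Cluster 9 the Ebf1 difference did not pass in batch 2 alone (edgeR adjusted p = 0.202).

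Each called pair was also set against the same gene in Cluster 11 of the same embryo. The pairs were taken because they had been called lower in EtOH, so these differences are a description with no test. The log2 ratio of Ebf1 to its Cluster 11 level was lower in EtOH by 1.46 in Cluster 1, by 1.72 in Cluster 5 and by 0.86 in Cluster 9. For Foxp1 in Cluster 5 it was lower by 0.57, and for Foxp2 in Cluster 16 by 1.07.

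Wider lists of striatal genes were read from the same fits. In Cluster 11, 0 genes were called of 6 tested among 9 direct pathway genes (median log2 fold change 0.08), of 3 tested among 8 indirect pathway genes (-0.36), of 15 tested among 16 maturation and signalling genes (0.08), of 4 tested among 12 precursor genes (-0.13) and of 6 tested among 14 relatives of the members (0.07), beside a median of -0.01 over all genes tested there. The pathway lists include 6 of the members. The smallest adjusted p among those higher in EtOH belonged to Pbx3, a homeodomain cofactor of Meis proteins (0.33, adjusted p = 0.0761), the forkhead gene Foxp4 (0.22, adjusted p = 0.182) and the retinoid receptor gene Rxrg (0.60, adjusted p = 0.192). Among those lower it belonged to the cannabinoid receptor gene Cnr1 (-0.21, adjusted p = 0.244). None of these passed. Over all clusters, beside the 0.35% of all pairs called lower and the 0.442% called higher, 4 of 87 pairs of the direct pathway list (4.60%) were called lower and 0 higher, the 4 being the Ebf1 calls and the eyes absent homologue Eya1 in Cluster 3. Of the maturation list, 1 of 263 (0.380%, near the share of all genes) was called lower, Rarb in Cluster 1, and 3 (1.14%) were called higher, and all 3 were Oprm1, in Cluster 1 (0.81, adjusted p = 0.0396), Cluster 8 (0.74, adjusted p = 0.046) and Cluster 13 (1.23, adjusted p = 0.0284). In Cluster 11, where Oprm1 was highest, it was at -0.22 (adjusted p = 0.418). The indirect pathway list had 1 of 49 pairs lower (2.04%), Sp9 in Cluster 5, the precursor list 0 of 78 and the relatives 2 of 171 lower (1.17%), Pbx3 and Meis1 in Cluster 1.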

How the data were processed

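Nuclei of 11 embryonic cortices were analysed, with group, dam and batch taken from the labels. The authors aligned reads with Cell Ranger (mm10, version not given in the sources used here), filtered nuclei and genes, clustered the nuclei after Harmony correction for batch and dam, removed non-neuronal, thalamic and low-transcript nuclei, and deposited raw UMI counts as 1 table per embryo and cluster. Cell Ranger was run at its default settings, and no strand is named. No doublet caller was run here, and none is named in the methods. Total counts per embryo were 14078316 to 83061737. Intervals and limits cover counting error only.

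Counts were summed per embryo and cluster (at least 10 nuclei, at least 2 embryos per group) in Python 3.11.15 (pandas 2.3.3, NumPy 2.4.6, SciPy 1.17.1; figures by matplotlib 3.10.9). Treatments were compared with edgeR 4.0.16 in R 4.3.3 (TMM, filterByExpr, glmQLFit with the robust option, glmQLFTest). DESeq2 1.42.0, limma 3.58.1 (voom, dam as a random block), batch as a term, single batches, sums per dam, thinned counts, no filter on low counts, at least 20 nuclei, adjustment over all clusters, no fold threshold and each embryo left out were alternatives, and the tools were tested on simulated data. Same-dam embryos differed by more than sampling noise (chi-square per gene 4.33 to 89.7, against 1 for repeated draws). Text names all 10 members where they were among the 3 highest clusters or called, the 3 nearest genes of each (at least 200 UMIs), up to 3 list genes per direction in Cluster 11 and list genes called in 3 clusters or more. Members and lists were chosen with earlier results of these data known. Positions are from GENCODE on GRCm38, and promoters from RefSeq on GRCm38.p6. Reads, and spliced and unspliced counts, were not analysed here.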

Additional observations from a re-analysis of the deposited data

Results flagged for a closer look

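An embryo that stood apart from the others of its group, by the gap to its nearest neighbour relative to the group's range, was found in 9 of 71 groups of 4 to 6 embryos, where chance gives about 1 in 20 (3.55). In Cluster 7, Ebf1 was at 1014 CPM in S2-2 with 581 CPM in the next saline embryo, Isl1 at 176 CPM in S2-1 with 86.7 CPM next, Penk at 4.29 CPM in E2-3 with 0.437 CPM next among EtOH embryos, and Tac1 at 20.03 CPM in E1-2 with 6.98 CPM next. Isl1 in Cluster 18 was lowest in S2-2, at 118 CPM with 184 CPM next. Meis2 in Cluster 13 was lowest in S2-2 among the saline embryos, at 5520 CPM with 7372 CPM next. Zfp503 in Cluster 13 was at 0 CPM in E1-2 with 9.61 CPM next. Drd2 in Cluster 19 was at 55.4 CPM in E1-1 with 16.8 CPM next. Some of these values rested on few nuclei, with 55 in Cluster 7 of E1-2 and 15 in Cluster 19 of E1-1. The Penk value of E2-3 was 3 UMIs in 2 of 75 nuclei, and the 1 in 20 was not checked for counts this low. The share of nuclei in Cluster 11 was lowest in S2-2 among the saline embryos, at 3.47% with 4.38% next.

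The 5 called pairs differed from the same gene in Cluster 11 of the same embryo. The pairs were taken because they had been called lower in EtOH, while no member was called in Cluster 11, so the differences follow from that choice and no test is given. The EtOH minus saline difference of the log2 ratio to Cluster 11 was -1.46 for Ebf1 in Cluster 1, -1.72 in Cluster 5 and -0.86 in Cluster 9, -0.57 for Foxp1 in Cluster 5 and -1.07 for Foxp2 in Cluster 16.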

How the results depend on the processing

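The count of 5 called pairs of member and cluster, all lower, became 11 with DESeq2 and 11 with limma-voom and the dam as a random block. It was 19 without the filter on low counts (17 lower and 2 higher) and 13 in batch 1 alone. In batch 2 alone it was 3 (1 lower and 2 higher), and with adjustment over all clusters it was 3. It lay between 1 and 13 when 1 embryo was left out, with 13 only without S2-4. For the wider lists without the 10 members the count of 8 became 22 with DESeq2, 13 with limma-voom, 13 with counts summed per dam, 55 without the filter, 33 in batch 1 alone, 0 in batch 2 alone, 1 with thinned counts and 2 with adjustment over all clusters, and 0 to 46 with 1 embryo left out, the 46 without S2-4. With batch as a replicate block, which the labels give, 3 pairs of the members and 4 of the wider lists were called. Ebf1 in Cluster 9 was called in 22 of the 23 settings, all but batch 2 alone. Ebf1 in Cluster 5 and Foxp2 in Cluster 16 were called in 11 each, and Ebf1 in Cluster 1 and Foxp1 in Cluster 5 in 9 each. None of the 5 changed direction, and the cause of the lost calls was not tested.

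Uncalled differences turned sign in a few settings. In batch 1 alone the log2 fold change was -0.0636 for Ebf1, -0.10 for Foxp1, -0.26 for Foxp2 and -0.0361 for Meis2 in Cluster 11, and -0.26 for Foxp1 and -0.0370 for Drd2 in Cluster 13. Ebf1 in Cluster 11 was at -0.0131 without the filter, -0.0285 with counts per dam and -0.0046 to 0.10 with 1 embryo left out, and Isl1 there was at 0.0242 with thinned counts. The difference in the share of Cluster 11 nuclei lay between -0.186 and 0.375 percentage points with 1 embryo left out (p = 0.468 to 0.981 by exact permutation) and was 0.0258 over dam means, where the smallest possible exact p is 0.333. Zfp503 was highest in Cluster 18 with counts pooled over embryos, and Drd1 in Cluster 11 with thinned counts. The other members kept their highest cluster in the 5 alternatives. Drd1, Penk, Zfp503 and Tac1 rested on few UMIs, with 495, 175, 1923 and 1220 in the series.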
